A study of Mus musculus with 6 samples.

Results

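The proteasome genes of mouse tibialis anterior (TA) muscle were compared between muscles transduced with the transcription factor Prox1 and control muscles. The genes were taken by symbol: every gene measured on the array whose symbol starts with Psma, Psmb, Psmc, Psmd, Psme, Psmf or Psmg. This gave 49 of the 19057 genes measured, each with its brightest probe by the mean over the 6 arrays. Of the 49, 47 are subunits, activators or assembly factors of the proteasome. Psmc3ip and Psme3ip1 encode proteins that interact with a subunit and entered only through their symbols, and Psmf1, a proteasome regulator, has no probe with its symbol here. The first group was 3 TA muscles injected with an adeno-associated virus of serotype 8 carrying Prox1 (AAV8-Prox1). The second was 3 TA muscles that received the same type of vector with the red fluorescent protein mCherry and a nuclear localization signal (AAV8-NLS-mCherry, here AAV8-mCherry). All came from male C57Bl/6J mice aged 3 months, so that control muscles carried a virus too. According to the study's methods the control vector was injected into the opposite leg, but no label names the mouse of a muscle, and the promoter of the vector is not given in the sources used here.

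The proteasome is the protease that degrades proteins marked with ubiquitin. Its core particle is a barrel of stacked rings, with alpha subunits at the ends as a gate and beta subunits in the middle, some of which carry the active sites. A regulatory cap binds ubiquitin chains, removes them, unfolds the substrate with a ring of ATPases and feeds it into the core. Interferon induces immunoproteasome counterparts that take the place of the catalytic beta subunits, and it raises the activator PA28, which opens the core without ubiquitin. In skeletal muscle the ubiquitin-proteasome system is best known for breaking down contractile proteins during atrophy and for the turnover of proteins during remodelling.

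Values are log2 signals, where 1 unit is a doubling, and a log2 signal of 7 was taken as the limit above background. The array median was 6.61 in all arrays, and pairs of arrays correlated at 0.990 to 0.994 inside a group and at 0.967 to 0.974 from one group to the other (across probes, which are no independent replicates). The brightest probe of Prox1 was at background in both groups (6.54 in AAV8-Prox1 and 6.58 in AAV8-mCherry muscles, group means), so it does not check the labels. The muscle fibre genes Acta1 and Ckm lay at 14.54 or more in every array. A whole muscle holds several cell types, and fewer cells of a type cannot be told apart from less RNA per cell.

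Of the 49 genes, 5 rose and 3 fell at an adjusted p under 0.05 from limma, and 41 did not pass. Psma7, Psmc3, Psmd1, Psmd4 and Psmd11 rose by 0.20 to 0.50 on the log2 scale, and Psmb6, Psmb10 and Psme1 had log2 fold changes of -0.27, -0.39 and -0.50. Thus 10.2% of the 49 rose and 6.12% fell, against 5.23% and 4.21% of all genes measured. Most genes on the array were dim, however, and 36 of the 49 reached a log2 signal of 7 on average. Of these 36, 13.9% rose and 8.33% fell (22.2% in all), against 12.9% and 11.3% (24.3% in all) of the 6734 genes with such a signal. The share of proteasome genes that changed was thus close to that of other genes of measurable signal. The log2 fold changes of the 36 had a median of 0.08, against 0.01 over the 6734 genes.

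The changes were small. The median size of the log2 fold change was 0.175 over the 36 genes and 0.167 over the 6734. A size of 0.5 or more was reached by 1 of the 36 (2.78%), which was Psme1 with Psmd11 just under that size, against 10.2% of the 6734. Groups did not overlap for 14 genes that were higher and 6 that were lower in AAV8-Prox1 muscles, against 12.2% and 11.1% of all genes. With a mean of 7 or more these were 11 higher (30.6%) and 6 lower (16.7%), against 22.5% and 20.6% of the 6734. The 28 genes of this signal that did not pass had 95% intervals of the log2 fold change within -0.73, the lower bound of Psmb8, and 0.64, the upper bound of Psmc1. Of the 49, 20 had an unadjusted p under 0.05 in limma, against 4196 of all 19057 genes. With a mean of 7 or more these were 19 of the 36, against 3243 of the 6734. Leaving out each array in turn gave 1 to 4 genes higher and 1 to 4 lower. Over all genes it gave 700 to 809 higher and 546 to 681 lower, against 997 and 802 with all arrays. Fewer genes thus passed whichever array was left out, so a missed threshold need not mean that 1 muscle decides a call. The arrays without which a call changed are named with the gene.

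**Figure D1:**
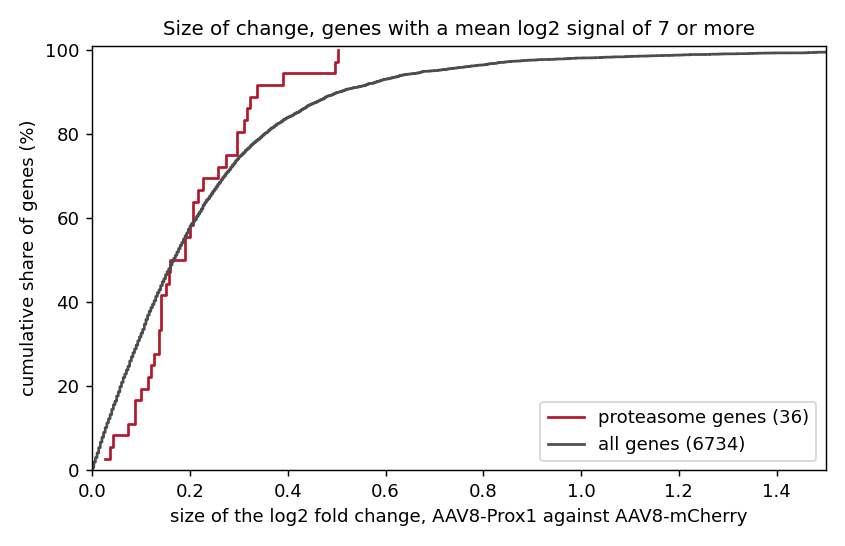
Cumulative share of genes (y axis, percent) against the size of the log2 fold change between AAV8-Prox1 and AAV8-mCherry muscles (x axis), for the 36 proteasome genes and for all 6734 genes with a mean log2 signal of 7 or more. The proteasome curve ends near 0.5, whereas 10.2% of all genes reach 0.5 or more.

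The 300 bases around the start sites of 4 genes are shown because they hold core letters of elements known from the control of proteasome genes, in genes that rose (Psmd4), fell (Psme1 and Psmb6) or did not pass (Psmb5). Each window runs 5′ to 3′ on the gene's strand, with 250 bases before and 50 after the annotated start (RefSeq, build GRCm38.p6). Capitals mark the core of an interferon-stimulated response element (GAAANNGAAA, here read on the opposite strand) in Psme1 (chr14:55578244-55578543, plus strand) and Psmd4 (chr3:95042565-95042864, minus strand). In Psmb6 (chr11:70525107-70525406, plus strand) and Psmb5 (chr14:54617946-54618245, minus strand) they mark the core of an antioxidant response element (TGACNNNGC), the kind of site used by NRF1, the factor that raises proteasome genes when the proteasome is overloaded.
Psme1: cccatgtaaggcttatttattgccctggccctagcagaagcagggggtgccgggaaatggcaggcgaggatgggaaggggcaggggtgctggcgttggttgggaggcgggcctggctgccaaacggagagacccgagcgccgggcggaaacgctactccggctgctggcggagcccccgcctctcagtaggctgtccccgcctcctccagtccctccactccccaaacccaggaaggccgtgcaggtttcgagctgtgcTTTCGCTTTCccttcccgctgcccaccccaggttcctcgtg
Psmd4: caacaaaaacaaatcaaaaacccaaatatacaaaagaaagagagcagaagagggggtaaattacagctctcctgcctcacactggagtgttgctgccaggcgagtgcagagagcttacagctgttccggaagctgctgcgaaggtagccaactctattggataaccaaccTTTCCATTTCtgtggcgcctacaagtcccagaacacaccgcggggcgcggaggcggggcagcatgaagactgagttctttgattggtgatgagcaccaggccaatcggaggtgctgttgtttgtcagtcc
Psmb6: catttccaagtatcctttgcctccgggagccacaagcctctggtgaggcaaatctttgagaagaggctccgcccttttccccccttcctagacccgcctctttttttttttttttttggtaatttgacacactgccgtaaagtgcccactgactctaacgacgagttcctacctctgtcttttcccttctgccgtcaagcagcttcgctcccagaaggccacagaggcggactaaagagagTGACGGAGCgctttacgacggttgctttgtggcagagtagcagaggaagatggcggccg
Psmb5: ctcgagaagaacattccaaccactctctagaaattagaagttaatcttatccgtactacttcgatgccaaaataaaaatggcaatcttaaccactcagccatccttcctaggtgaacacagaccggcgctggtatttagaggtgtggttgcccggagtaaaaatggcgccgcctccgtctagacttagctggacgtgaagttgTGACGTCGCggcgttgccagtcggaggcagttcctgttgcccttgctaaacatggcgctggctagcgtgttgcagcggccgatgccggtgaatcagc
Both motifs were searched on both strands, and no window shown held both. Of the 49 genes, 41 had a window, 45 windows in all. The interferon core stood in 5 of the 45 (11.1%), those of Psmb3, Psmd4, Psmd9, Psme1 and Psmg4, against 3.44% of all 32851 windows. Of these genes Psmd4 rose, Psme1 fell, and the others did not pass. The immunoproteasome genes Psmb8, Psmb9 and Psmb10 had windows too, and none of these held the interferon core. The antioxidant core stood in 6 of 45 (13.3%), those of Psmb5, Psmb6, Psmc6, Psmd9, Psmd12 and Psme4, against 12.4% of all windows. Psmb6 fell and the other 5 did not pass. A match describes letters in a window and is not a site.

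The cap held 4 of the 5 genes that rose. Among its 17 base and lid subunits, 4 rose, none fell and 13 did not pass, and 13 of 17 log2 fold changes were above 0, with a median of 0.16 against 0.00 over all genes. The 4 were 23.5% of the 17, against 5.23% of all genes, and 33.3% of the 12 with a mean signal of 7 or more, against 12.9% of the 6734 such genes. Groups did not overlap in 10 of the 17, with 9 higher (52.9%) and 1 lower, Psmc4 (5.88%), against 12.2% and 11.1% of all genes. At a mean of 7 or more these were 8 higher (66.7%) and 1 lower (8.33%), against 22.5% and 20.6% of the 6734. Psmd11 encodes Rpn6, a lid subunit that holds the cap and the core together. It had log2 signals of 7.66, 7.47 and 7.54 in AAV8-Prox1 muscles, against 7.01, 7.15 and 7.02 in AAV8-mCherry muscles. All AAV8-Prox1 muscles lay above all controls, which were only just above background. The gene was 1.41-fold higher (log2 fold change 0.50 ± 0.06 SE, adjusted p = 0.00341) and passed without any 1 of the 6 arrays (adjusted p = 0.00550 to 0.0182). Its other 2 probes were at background in all arrays.

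Psmc3, which encodes the ATPase Rpt5 of the cap's unfolding ring, had 11.73, 11.84 and 11.62 in AAV8-Prox1 muscles, against 11.37, 11.34 and 11.47 in AAV8-mCherry muscles. The groups did not overlap (log2 fold change 0.34, standard error 0.06, adjusted p = 0.0204). It passed without AAV8-Prox1 replicate 3 or AAV8-mCherry replicate 3 (adjusted p = 0.0152 to 0.0340), but not without any 1 of AAV8-Prox1 replicates 1 and 2 and AAV8-mCherry replicates 1 and 2 (adjusted p = 0.0554 to 0.0660). Psmd1, the large scaffold subunit Rpn2 of the cap's base, had 13.16, 13.21 and 12.95 in AAV8-Prox1 muscles, against 12.77, 12.82 and 12.76 in AAV8-mCherry muscles. Its lowest AAV8-Prox1 muscle, replicate 3, was still above the controls (a log2 fold change of 0.32 with standard error 0.07, adjusted p = 0.0317). Without that array the adjusted p was 0.00494, and without any other array it missed the threshold (0.0659 to 0.107). A further probe of Psmd1 rose too (log2 fold change 0.40, adjusted p = 0.00488), and a dimmer one had 0.15 (adjusted p = 0.615).

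Psmd4 encodes Rpn10, a ubiquitin receptor of the cap. It had 13.40, 13.31 and 13.42 in AAV8-Prox1 muscles, against 13.09, 13.20 and 12.95 in AAV8-mCherry muscles. The groups were apart by little, with control replicate 2 nearest to the AAV8-Prox1 muscles (log2 fold change 0.30 ± 0.07 SE, adjusted p = 0.0414). Psmd4 passed without that control (adjusted p = 0.0212) and not without any other array (0.0726 to 0.130). In a fit with the replicate number as a block, Psmd4, Psmc3 and Psma7 no longer passed (adjusted p = 0.130, 0.0899 and 0.0567). That block lowered the counts over all genes too (721 higher and 559 lower, against 997 and 802). No label says that equal numbers are pairs, so a gene that misses the threshold there is not singled out.

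Other cap subunits came close without passing. The lid subunits Psmd12 (Rpn5) and Psmd13 (Rpn9) had log2 fold changes of 0.26 and 0.21 (adjusted p = 0.0628 and 0.0730), and in both all AAV8-Prox1 muscles lay above all controls. The ATPase Psmc2 (Rpt1) had 0.21 (adjusted p = 0.101) with groups apart. Without AAV8-mCherry replicate 1, the highest of the 3 controls in both genes, Psmd12 and Psmc2 passed (adjusted p = 0.0346 and 0.0248). The lid subunit Psmd7 (Rpn8) had 0.16 (adjusted p = 0.246), also with groups apart, and 0.10 to 0.16 over its 3 probes at 7 or above. The ATPase Psmc1 (Rpt2) had 0.32, the widest spread among cap genes and an adjusted p of 0.333. The ATPases did not all point one way, as Psmc4 (Rpt3) had -0.14 (adjusted p = 0.128) with groups apart and Psmc5 (Rpt6) had -0.14 (adjusted p = 0.485). Psmc6, Psmd2, Psmd3, Psmd6 and Psmd14, the last of which encodes the enzyme that cuts off ubiquitin chains, had mean signals under 7, where these probes say little about level. The lid subunit Psmd8 (Rpn12) had 0.04 with overlapping groups. The cap's assembly chaperones Psmd5, Psmd9 and Psmd10 did not pass. Of these 3, Psmd10 (gankyrin) alone had a mean signal over all arrays of 7 or more, with a log2 fold change of 0.15 (adjusted p = 0.460), although a dimmer Psmd10 probe with a mean under 7 had 0.17 and passed (adjusted p = 0.0375).

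**Figure D2:**
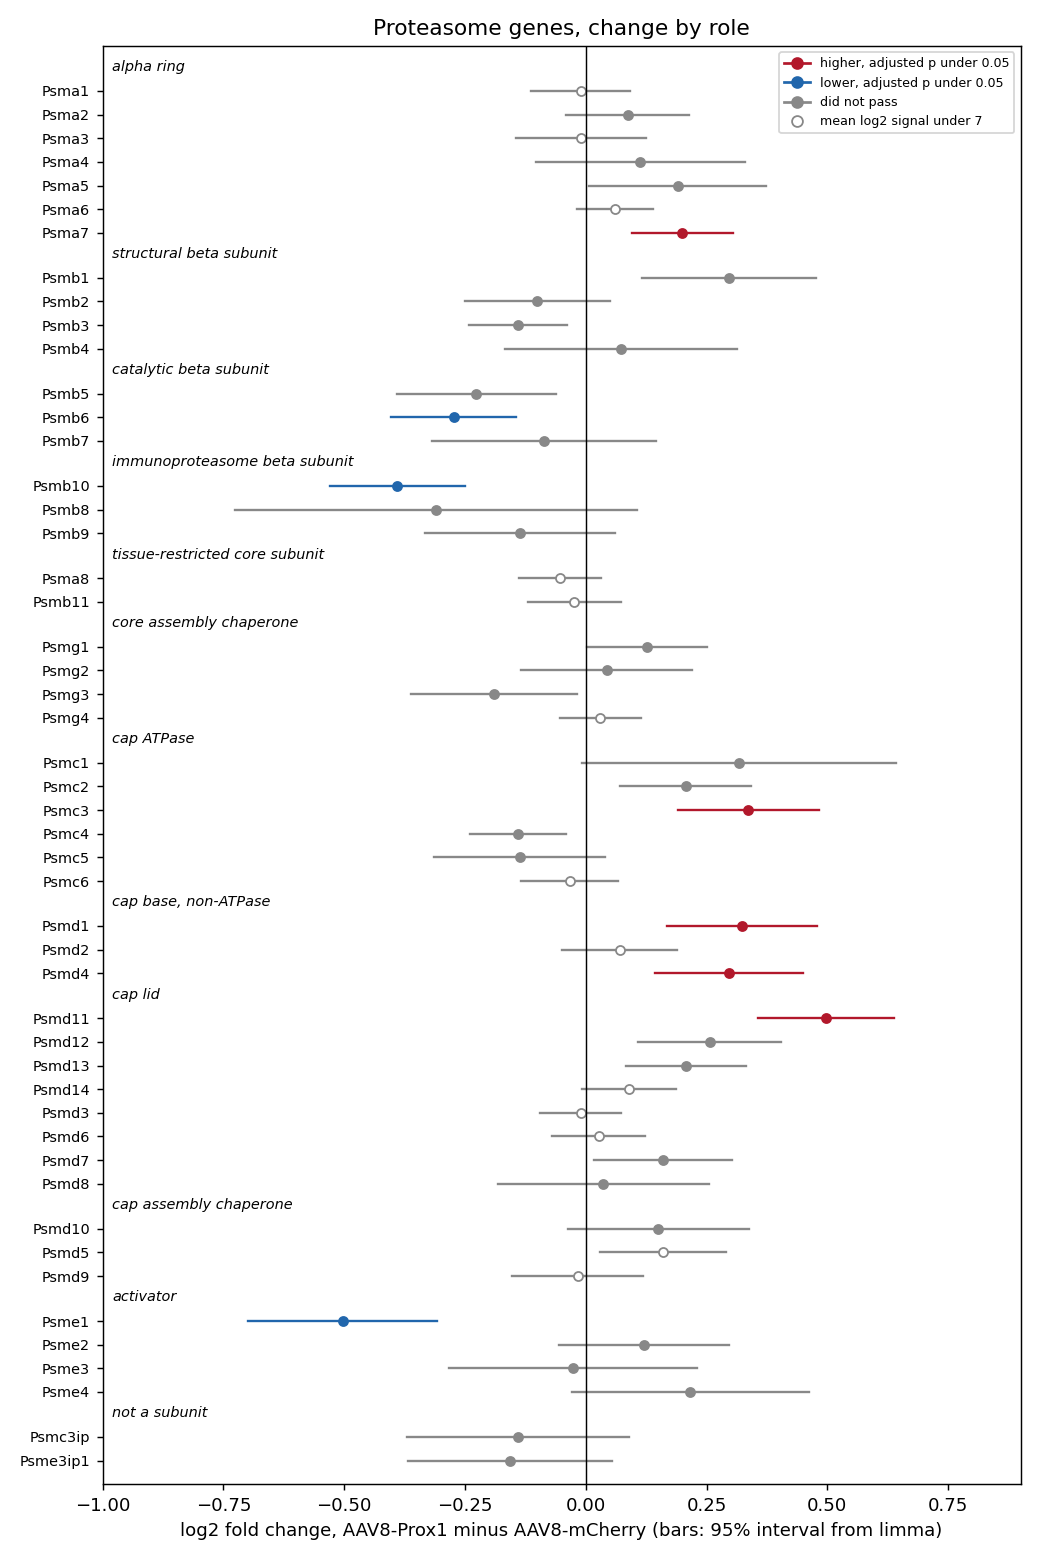
Log2 fold change (x axis, AAV8-Prox1 minus AAV8-mCherry, with 95% intervals from limma) of all 49 genes, grouped by role, with red for higher, blue for lower and grey for not passed, and open circles for a mean log2 signal under 7. Cap genes that passed lie right of 0 (0.30 to 0.50), and the 3 catalytic and 3 immunoproteasome beta subunits all lie left of it (-0.39 to -0.09).

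The core particle had 1 call in each direction, near the share of other genes. Of its 14 alpha and standard beta subunits, Psma7 rose and the catalytic subunit Psmb6, described below, fell (7.14% each). Over all genes these shares were 5.23% and 4.21%. A mean of 7 or more was reached by 11 of the 14, both called genes included, and 12.9% and 11.3% of genes with such a signal rose and fell. In the alpha ring Psma7 (alpha4) rose, and the other 6 did not pass. Psma7 had 11.68, 11.57 and 11.70 in AAV8-Prox1 muscles, against 11.46, 11.41 and 11.48 in AAV8-mCherry muscles. The groups were apart (log2 fold change 0.20, standard error 0.05, adjusted p = 0.0442), but it passed only without AAV8-Prox1 replicate 2 (adjusted p = 0.0307) and otherwise gave 0.0883 to 0.142 when 1 array was left out. A second probe of Psma7 had a difference of 0.03 on the log2 scale (adjusted p = 0.897). Psma2, Psma4 and Psma5 had 0.09, 0.11 and 0.19, none past the threshold, and Psma1, Psma3 and Psma6 were at background. Of the 4 beta subunits without an active site, none passed. Psmb1 had 0.30 (adjusted p = 0.0758, and 0.0321 without AAV8-mCherry replicate 1) and Psmb3 had -0.14 (adjusted p = 0.139), both with groups apart, while Psmb2 and Psmb4 had -0.10 and 0.07. Psma8 of the testis and Psmb11 of the thymus cortex were at background in all arrays.

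The catalytic beta subunits and their interferon-induced counterparts, 6 genes, all had log2 fold changes below 0, with a median of -0.25 against 0.00 over all genes. Psmb6 and Psmb10 fell and 4 did not pass. All 6 had a mean signal of 7 or more, and the 33.3% that fell stand against 11.3% of the 6734 such genes and 4.21% of all genes. Psmb6 encodes beta1, which cuts after acidic residues. It had 11.17, 11.09 and 11.19 in AAV8-Prox1 muscles, against 11.51, 11.32 and 11.44 in AAV8-mCherry muscles. The groups did not overlap (log2 fold change -0.27, standard error 0.06, adjusted p = 0.0291), but Psmb6 passed only without AAV8-mCherry replicate 2 (adjusted p = 0.0149) and otherwise gave 0.0597 to 0.106 with 1 array left out. A second probe had -0.30 (adjusted p = 0.226). Psmb5 (beta5, the chymotrypsin-like site) had 8.69, 8.50 and 8.75 in AAV8-Prox1 muscles, against 8.94, 8.79 and 8.89 in AAV8-mCherry muscles. These too were apart, and the gene did not pass (log2 fold change -0.23, 95% interval -0.39 to -0.06, adjusted p = 0.139). Psmb7 (beta2, the trypsin-like site) had 12.01, 11.90 and 12.09 in AAV8-Prox1 muscles, against 12.31, 12.04 and 11.91 in AAV8-mCherry muscles. Here the groups overlapped (log2 fold change -0.09, adjusted p = 0.806), and its 4 probes ranged from -0.20 to -0.07. With 1 array left out, Psmb7 ranged from -0.175 to 0.025, so its direction rested on single arrays.

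Psmb10 (beta2i) is the immunoproteasome form of beta2. It had 9.27, 9.14 and 9.36 in AAV8-Prox1 muscles, against 9.69, 9.59 and 9.66 in AAV8-mCherry muscles. Every AAV8-Prox1 muscle was below every control, and the gene was 1.31-fold lower (log2 fold change -0.39, standard error 0.06, adjusted p = 0.00924). It passed without any 1 of the arrays (adjusted p = 0.00909 to 0.0390), and a second probe had -0.32 with groups apart (adjusted p = 0.148). Psmb8 (beta5i) had 7.74, 8.0 and 7.89 in AAV8-Prox1 muscles, against 8.50, 7.74 and 8.32 in AAV8-mCherry muscles. Control replicate 2 lay with the AAV8-Prox1 muscles and the other 2 controls above them (log2 fold change -0.31, standard error 0.18, adjusted p = 0.508). Without that control Psmb8 passed (log2 fold change -0.53, adjusted p = 0.0214). A dimmer second probe had -0.26 (adjusted p = 0.127). Psmb9 (beta1i) had 7.05, 7.06 and 7.16 in AAV8-Prox1 muscles, against 7.43, 7.11 and 7.14 in AAV8-mCherry muscles. All but control replicate 1 lay at the edge of background (log2 fold change -0.14, adjusted p = 0.550, and -0.195 to -0.035 with 1 array left out).

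**Figure D3:**
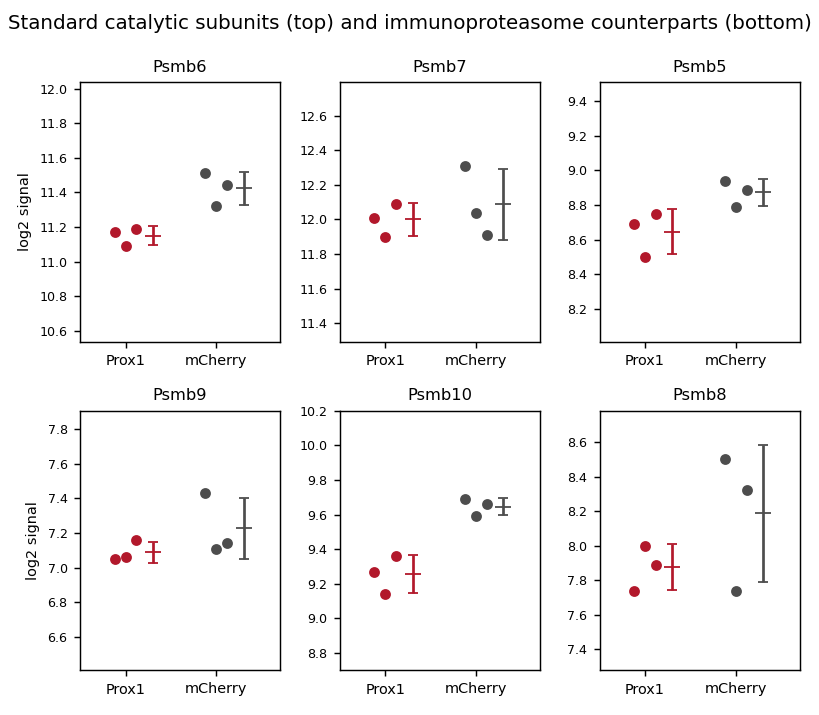
Log2 signal (y axis) of the standard catalytic subunits Psmb6, Psmb7 and Psmb5 and, below them, their immunoproteasome counterparts Psmb9, Psmb10 and Psmb8, in AAV8-Prox1 (red, left) and AAV8-mCherry muscles (grey, right), with points for arrays and bars for mean and SD (n = 3 each). Psmb6, Psmb10 and Psmb5 show groups apart, and 1 control of Psmb8 (7.74) lies among the AAV8-Prox1 muscles.

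Among the 4 activators, Psme1 fell (25%) and the other 3 did not pass. All 4 had a mean of 7 or more, where 11.3% of genes fell, against 4.21% of all genes. Psme1 encodes PA28alpha, which forms a ring with PA28beta on the end of the core. It had 9.91, 10.16 and 10.03 in AAV8-Prox1 muscles, against 10.66, 10.39 and 10.56 in AAV8-mCherry muscles. The groups were apart, and Psme1 was 1.42-fold lower (log2 fold change -0.50, standard error 0.08, adjusted p = 0.0132). Without AAV8-mCherry replicate 3 the adjusted p was 0.0528, with the replicate number as a block it was 0.0742, and without any 1 of the other arrays it stayed at 0.0447 or below. A second probe had -0.48 (adjusted p = 0.192). Its partner Psme2 (PA28beta) had 7.63, 7.85 and 7.91 in AAV8-Prox1 muscles, against 7.76, 7.63 and 7.64 in AAV8-mCherry muscles. These overlapped (log2 fold change 0.12, adjusted p = 0.561), and the difference between the 2 partners was not tested. Psme3 (PA28gamma, the nuclear form) had 9.13, 9.24 and 8.96 in AAV8-Prox1 muscles, against 8.95, 9.36 and 9.10 in AAV8-mCherry muscles (log2 fold change -0.03, adjusted p = 0.963). Psme4 (PA200) had 12.67, 12.52 and 12.25 in AAV8-Prox1 muscles, against 12.38, 12.25 and 12.16 in AAV8-mCherry muscles. AAV8-Prox1 replicate 3 overlapped the controls (log2 fold change 0.22, adjusted p = 0.399).

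**Figure D4:**
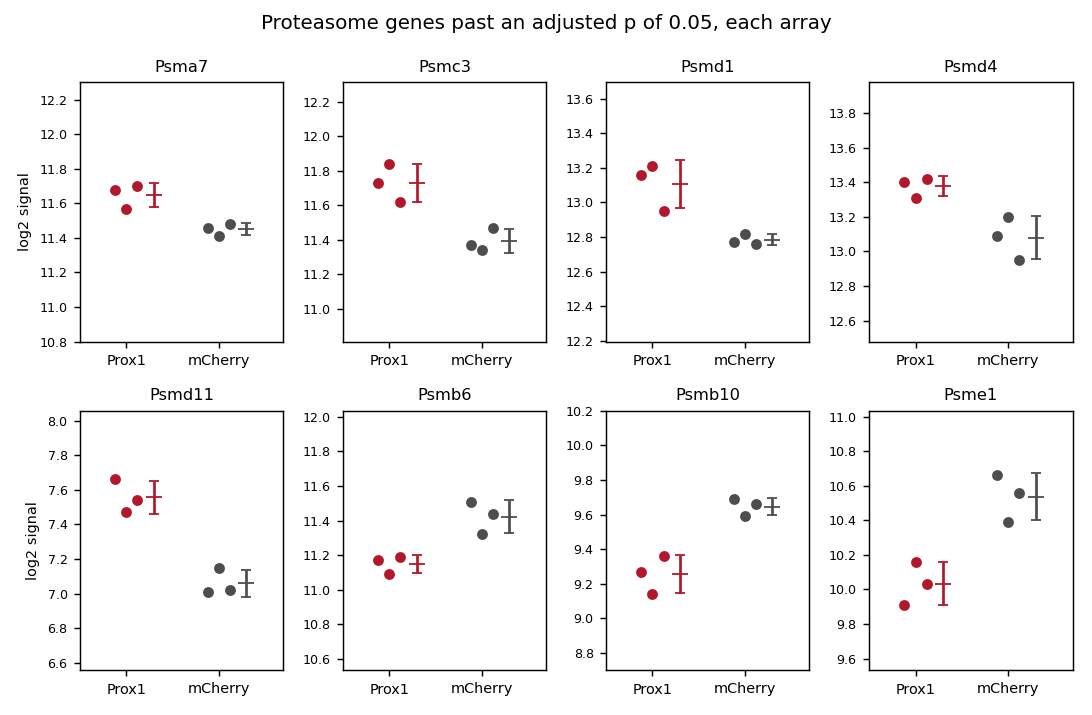
Log2 signal (y axis) of the 8 genes past an adjusted p of 0.05 in AAV8-Prox1 (red, left) and AAV8-mCherry muscles (grey, right), with a point for each array and bars for mean and SD (n = 3 each). Groups are apart in all 8, by the most in Psmd11 and Psme1 (log2 fold changes 0.50 and -0.50).

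Among factors that assemble the core, the 1 that rose was outside the Psm symbols. Pomp, the maturation factor that escorts the forming core, had 12.55, 12.64 and 12.65 in AAV8-Prox1 muscles, against 12.36, 12.19 and 12.38 in AAV8-mCherry muscles. It rose, with groups apart (log2 fold change 0.30, standard error 0.06, adjusted p = 0.0237). It did not pass without AAV8-Prox1 replicate 2 or 3 (adjusted p = 0.0806 to 0.0912) or with a replicate block (0.0693). The chaperones Psmg1, Psmg2, Psmg3 and Psmg4 did not pass, with log2 fold changes of 0.13, 0.04, -0.19 and 0.03, the last at background. Pomp was the only one of 7 measured proteasome parts without a Psm symbol that passed (14.3%). Of all genes 5.23% rose. A mean of 7 or more was reached by 5 of the 7, Pomp included, and 12.9% of genes with such a signal rose. Sem1, Uchl5, Ecpas and Ube3c did not pass, nor did Usp14 and Txnl1, which were at background.

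Among genes that act before the proteasome, of 10 measured ubiquitin, shuttle and VCP genes, 3 rose (30%) and none fell, against 5.23% and 4.21% of all genes, and 9 of the 10, these 3 included, had a mean of 7 or more, where 12.9% of genes rose and 11.3% fell. Vcp, the ATPase that pulls ubiquitinated proteins out of membranes and complexes, had 13.55, 13.67 and 13.61 in AAV8-Prox1 muscles, against 13.27, 13.29 and 13.33 in AAV8-mCherry muscles (log2 fold change 0.31, adjusted p = 0.00495). Its cofactor Nploc4 had 9.35, 9.31 and 9.23 in AAV8-Prox1 muscles, against 8.89, 8.80 and 8.85 in AAV8-mCherry muscles (log2 fold change 0.45, adjusted p = 0.00143). Groups were apart in both, and both passed without any 1 of the arrays. Ufd1, the partner of Nploc4 in the complex with VCP, had -0.28 (adjusted p = 0.0803, and 0.0340 without AAV8-mCherry replicate 3). Rad23b of the same list had -0.35 with groups apart and did not pass (adjusted p = 0.100). Of the 10 log2 fold changes, 6 were above 0 and 4 below. Sqstm1, the receptor p62 that carries ubiquitinated cargo to autophagy, rose by 0.74 on the log2 scale (adjusted p = 0.0196), but not without AAV8-Prox1 replicate 2 or 3 or AAV8-mCherry replicate 3 (adjusted p = 0.0584 to 0.0662).

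The ubiquitin ligases linked to muscle atrophy that passed the threshold were all lower. Of 8 measured, none rose and 3 fell (37.5%), Fbxo32, Stub1 and Traf6. All 8 had a mean signal of 7 or more, where 12.9% of genes rose and 11.3% fell. Of the 8 log2 fold changes, 6 were below 0 and 2 above, the highest 0.23. Groups did not overlap for 1 that was higher (12.5%) and 4 that were lower (50%), against 22.5% and 20.6% of the 6734 genes. Fbxo32 (atrogin-1), a ligase that rises in wasting muscle, had 10.03, 10.04 and 10.00 in AAV8-Prox1 muscles, against 11.67, 10.77 and 11.01 in AAV8-mCherry muscles (log2 fold change -1.13, adjusted p = 0.0166). The AAV8-Prox1 muscles lay close together below all controls, and without any 1 of them the adjusted p was 0.0550 to 0.0614. Stub1, a ligase that works with chaperones, had -0.46 (adjusted p = 0.00248) and Traf6 had -0.45 (adjusted p = 0.0229). Stub1 passed without any 1 of the arrays, and Traf6 only without AAV8-Prox1 replicate 2 (0.00390, otherwise 0.0550 to 0.0812), with -0.10 (adjusted p = 0.159) as the mean of all its probes. Trim63 (MuRF1), the ligase of myosin and other contractile proteins, had 8.60, 8.52 and 8.95 in AAV8-Prox1 muscles, against 9.74, 9.23 and 9.19 in AAV8-mCherry muscles, and did not pass (log2 fold change -0.70, adjusted p = 0.0523). Without AAV8-Prox1 replicate 3, its highest of that group, it passed (0.0401).

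Of 14 measured genes around NRF1 and its relative NRF2, 1 rose (7.14%) and none fell, against 5.23% and 4.21% of all genes. Only 7 of the 14, with the 1 that rose, had a mean of 7 or more, where 12.9% of genes rose and 11.3% fell. Nfe2l1, which encodes NRF1, had -0.02 on the log2 scale (95% interval -0.17 to 0.13, adjusted p = 0.954). Srxn1, an antioxidant enzyme and NRF2 target, rose by 1.07 on the log2 scale (adjusted p = 0.0313). It passed without AAV8-Prox1 replicate 2 or 3 only, and without any other array gave 0.0631 to 0.110. Nqo1, another target, had 0.57 (adjusted p = 0.111), and Keap1, which holds NRF2 down, had -0.34 (adjusted p = 0.0856, and 0.0301 without AAV8-Prox1 replicate 1).

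None of 18 measured genes of interferon response and antigen presentation passed in limma, although 2 had an unadjusted p under 0.05. Of all 19057 genes, 9.44% passed (24.3% of those with a mean of 7 or more, as 11 of the 18 had) and 4196 had an unadjusted p under 0.05. Irf1, a factor that drives the immunoproteasome genes, had 9.34, 9.26 and 9.15 in AAV8-Prox1 muscles, against 9.53, 9.36 and 9.44 in AAV8-mCherry muscles, and did not pass (log2 fold change -0.19, adjusted p = 0.151, and -0.16 with 0.0430 as the mean of all its probes). B2m, the light chain of MHC class I, had 10.51, 10.72 and 10.88 in AAV8-Prox1 muscles, against 11.12, 9.89 and 10.96 in AAV8-mCherry muscles (log2 fold change 0.05, adjusted p = 0.976). Control replicate 2 was lowest in B2m, as it was among the controls in Psmb8.

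Markers of other cells moved between arrays as well, and the counts of their lists stand beside 5.23% of all genes that rose and 4.21% that fell, or 12.9% and 11.3% of those with a mean of 7 or more. Of 10 measured macrophage and leukocyte markers, 1 rose (Cd14, with a mean under 7 in both groups) and none fell, and Ptprc, Csf1r, Adgre1, Cd3e and Tyrobp were at background. The 4 above background (Lyz1, Lyz2, Laptm5 and Fcer1g) summed to a linear signal of 3000 to 3782 in AAV8-Prox1 muscles, against 1527 to 3037 in AAV8-mCherry muscles, lowest in control replicate 2. Of 6 endothelial markers none rose and Tie1 fell (log2 fold change -0.41, adjusted p = 0.0317), with a summed signal of the 5 above background of 1523 to 1813 in AAV8-Prox1 and 1696 to 2186 in AAV8-mCherry muscles. Of 6 fibroblast markers Lum rose (log2 fold change 0.81, adjusted p = 0.0173) and none fell, with 4633 to 5534 in AAV8-Prox1 and 2873 to 4057 in AAV8-mCherry muscles over the 4 above background. Of 6 muscle fibre genes Des rose and Mylpf, Tnnt3 and Myh4, of fast fibres, fell (log2 fold changes 0.60, -0.52, -1.20 and -1.04), while Pax7 and Myf5 of satellite cells were at background. Without single arrays the adjusted p of Tie1 reached 0.0931, of Lum 0.0589, of Myh4 0.120 and of Cd14 0.0546. Tie1 passed only without AAV8-mCherry replicate 1, and Lum did not pass without AAV8-Prox1 replicate 2 or 3. Myh4 passed only without AAV8-Prox1 replicate 1 or 3, and Cd14 missed the threshold only without AAV8-Prox1 replicate 2. The part of fibre type or cell makeup in the changes of the proteasome genes was not tested.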

How the data were processed

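Gene expression was measured on Illumina Mouse WG-6 v2 BeadChips, with 1 array for each of 3 AAV8-Prox1 and 3 AAV8-mCherry TA muscles. The deposited values are log2 signals that the authors had quantile-normalized in Chipster after a first pass in GenomeStudio. Quantile normalization gives all arrays 1 distribution, so a shift of all genes would not be seen. Background correction is not given in the sources used here. A raw table with 12 per-sample columns was not used because their names match no sample.

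Each probe was tested between the groups with the empirical Bayes statistics that the study's methods name (lmFit and eBayes of limma 3.58.1, R 4.3.3, two-sided, without a block). P values were adjusted by the Benjamini-Hochberg method over all 45281 probes, with a threshold of 0.05. Of the probes, 34885 carry 1 gene symbol, 18 several and 10378 none, and gene counts use only the first kind. A log2 signal of 7 was taken as the limit above background. Standard errors and 95% intervals come from limma. The number of arrays limits the precision, and an exact permutation test of 3 against 3 cannot go below 0.1. By the study's methods the vectors went into opposite legs of a mouse, so the muscles of a group would come from separate mice. No label names the mouse of a muscle, so the test left this pairing out. The p values weigh the difference between groups against the spread between muscles of a group, which limma moderates over all probes.

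The members and lists were chosen with earlier results of these data known. Values in every array are given for proteasome genes past the threshold, catalytic and immunoproteasome subunits and activators, and in other lists up to 6 genes past the threshold are named. Trim63, Irf1, B2m, Nfe2l1, Nqo1, Keap1, Ufd1, Rad23b, Acta1, Ckm and markers at background were added with their values in view. The test was tried on simulated data. Alternatives were the mean of all probes, the probe with the smallest p, a replicate block, a trended robust eBayes prior, a filter on dim probes, centring, and leaving out each array.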

Additional observations from a re-analysis of the deposited data

How the results depend on the processing

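Few calls held under all settings, and with 3 arrays a group the counts move by a few genes. The count of genes called higher, 5, was 3 with trend and robust estimation, 2 with a replicate block, and 1 to 4 when each array was left out. The count called lower, 3, was 1 with the mean of all probes and 1 to 4 when each array was left out. Of the 5 genes themselves, 1 to 3 were still called with 1 array left out (1 without AAV8-Prox1 replicate 1 and 1 without AAV8-mCherry replicate 1), and of the 3 genes 1 to 3. The median log2 fold change of 0.037 became 0.057 with the probe of smallest p and 0.087 over the 37 genes with probes at 7 or more in at least 3 arrays, and ranged from 0.0033 to 0.065 when each array was left out. No named gene that passed turned its direction. Repeated tests of named genes that had passed did so 204 times and missed the threshold 71 times, and those of genes that had not passed missed it 280 times and passed 20 times, among them Psmd12 and Psmb1 with the filter on dim probes (adjusted p = 0.0493 and 0.0381), Nqo1 and Trim63 with trend and robust estimation (0.0167 and 0.00234) and with that filter (0.0188 and 0.00672), and Keap1 with the filter (0.0304), the replicate block (0.0370), the mean of all probes (0.0266) and the probe of smallest p (0.00625). Centring the arrays on bright probes could change nothing, since the shift was 0 in every array. Taking the probe of smallest p could not make a gene that had passed miss the threshold. Both settings are in the counts of repeated tests above, so part of the agreement there was fixed in advance. Psma7 also missed the threshold with trend and robust estimation (adjusted p = 0.301), the mean of all probes (0.171) and the filter on dim probes (0.0836). Psmb6 missed it with the first 2 (0.117 and 0.0803), Psmd4 with trend and robust estimation (0.0608) and Psme1 with the mean of all probes (0.0547). Over all genes the replicate block called 721 higher and 559 lower, against 997 and 802 without it. Leaving out each array in turn called 700 to 809 higher and 546 to 681 lower over all genes. Deviations of muscles with the same number correlated at -0.13, 0.04 and -0.08, which gave no ground to treat equal numbers as pairs. Normalizing the raw signals anew was not run, since the names of their columns match no sample.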

Other observations

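Other probes of the proteasome genes were compared as well. The 49 genes have 86 probes, of which 10 passed an adjusted p of 0.05 from limma. For 12 genes more than 1 probe averaged 7 or above. In 7 of these all such probes gave the same call, and in 5 (Psma7, Psmb6, Psmb10, Psmd1 and Psme1) 1 probe did not pass where another did. The direction was the same on all such probes in 11 of the 12, with Psmb2 (-0.10 and 0.04) as the exception. A CCAAT box stood in 35.6% of the 45 promoter windows of these genes, against 37.4% of all windows, a TATAAA box in 8.89% against 13.6%, and the letters CACGTG in 11.1% against 7.15%.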
